A study of Mus musculus with 9 samples.

Results

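The Wnt pathway genes described here were the mouse genes whose official symbol is Wnt, Fzd, Sfrp, Dkk, Rspo or Lgr4, Lgr5 or Lgr6, together with the co-receptors Lrp5 and Lrp6, the secretion genes Porcn and Wls, the antagonists Frzb, Wif1 and Notum, the ligases Rnf43 and Znrf3, the intracellular genes Axin1, Axin2, Nkd1, Nkd2, Apc and Ctnnb1, and the factors Lef1, Tcf7, Tcf7l1 and Tcf7l2. They number 63 of the 28059 gene IDs in the table. Expression was measured by RNA sequencing in Cdk8 knockout clone 1, Cdk8 knockout clone 19 and the parental line of YAMC cells, with 3 libraries of each. YAMC cells, named for young adult mouse colon, are conditionally immortalized, and their tissue is labelled small intestine. All cells were grown at 32 °C and taken during logarithmic growth. The clones carry a CRISPR knockout of Cdk8, a kinase that acts on transcription as part of the Mediator complex, and the parental cells are labelled wild type. Each knockout line is 1 clone, and no clone that kept Cdk8 was analysed, so the effects of losing Cdk8 and of growing a line out of 1 cell cannot be told apart. The labels do not say whether the 3 libraries of a line came from separate cultures, so every p-value reflects only how far these libraries spread.

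Wnt proteins are secreted lipid-modified ligands that bind Frizzled receptors and, in the branch that works through beta-catenin, the co-receptors LRP5 and LRP6. Binding stops a destruction complex of Axin, APC and kinases from degrading beta-catenin, which then activates genes together with TCF/LEF factors. Some secreted antagonists take ligands away from their receptors, whereas R-spondins act through Lgr receptors to keep Frizzled receptors at the cell surface. In the intestine this pathway maintains the stem cells of the crypt.

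Levels are given in RPKM (reads per kilobase of a gene and megaread of a library), and each estimated depth was read from the smallest steps between low values. It was 23.2 to 32.6 megareads in clone 1, 24.8 to 33.4 in clone 19 and 28.2 to 44.2 in parental cells. Cdk8 itself stood at 10.3, 11.1 and 11.6 RPKM across clone 1 and 10.5, 10.3 and 10.3 RPKM across clone 19, against 17.5, 17.7 and 17.5 RPKM in parental cells. This is a weak check of the labels, because 32.6% and 32.3% of all tested genes were called lower in clone 1 and in clone 19. Several defining markers of intestinal epithelium were at or near 0, as Cdx2 was listed at 0 in all 9 libraries, and Epcam averaged 0.0934 RPKM in clone 1, 0.161 RPKM in clone 19 and 0.0212 RPKM in parental cells. Of the 12 markers of that list, 4 passed the filter on low values, Cdh1, Krt8, Krt18 and Krt19. Of these, 3 were called higher in clone 1 and 4 in clone 19. The list summed to 987 to 1037 RPKM in clone 1 and 969 to 976 RPKM in clone 19, against 613 to 632 RPKM in parental cells, nearly all of it from the 3 keratins. All 9 mesothelial markers, among which the same 3 keratins are counted, passed the filter. In each clone 8 of them were called higher and 1 lower, where 39.8% and 36.7% of all tested genes were called higher in clone 1 and in clone 19. The summed level of the mesothelial markers was 2870 to 2966 RPKM in clone 1 and 2920 to 2933 RPKM in clone 19, against 1660 to 1675 RPKM in parental cells. The summed level of 10 mesenchymal markers was 1945 to 1996 RPKM in clone 1, 1707 to 1764 RPKM in clone 19 and 2040 to 2100 RPKM in parental cells. Of the 9 that were tested, 4 were called higher and 5 lower in clone 1, and 3 and 6 in clone 19. Immune markers summed to at most 0.332 RPKM in clone 1, 0.26 RPKM in clone 19 and 1.07 RPKM in parental cells, and none of the 6 passed the filter. In a bulk library, fewer cells of a type and less RNA per cell cannot be told apart, and the part of these markers in the results that follow was not tested.

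Of the 63 genes, 30 had at least 1 RPKM in at least 3 of the 9 libraries and were tested, and 33 were not. Wnt2b, Wnt3 and Sfrp2 had no parental library at 1 RPKM. Sfrp2 passed this filter through the 3 clone 19 libraries alone, and Wnt3 needed its 3 clone 1 libraries beside 1 of clone 19. Both therefore had to differ between lines. They are included in the totals that follow but lend those totals no support. On the log2(RPKM + 0.5) scale, 29 of the 30 passed the test in clone 1, 17 higher and 12 lower, where 72.4% of all tested genes passed (39.8% higher and 32.6% lower). In clone 19 all 30 passed, 17 higher and 13 lower, where the share over all tested genes was 69.0% (36.7% higher and 32.3% lower). With so many genes called, the sizes of the changes are given beside the calls. The median absolute log2 fold change of the tested members was 0.55 in clone 1 and 0.48 in clone 19, against 0.22 and 0.20 over all tested genes. A change of at least 2-fold was seen in 7 members in clone 1, 5 higher and 2 lower, with 4.46% of all tested genes changed that much (1.79% higher and 2.67% lower). Clone 19 also had 7, 5 higher and 2 lower, against 4.07% of all tested genes (1.76% higher and 2.32% lower). Both clones were set against the same 3 parental libraries, so the comparisons are not independent of each other.

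**Figure D1:**
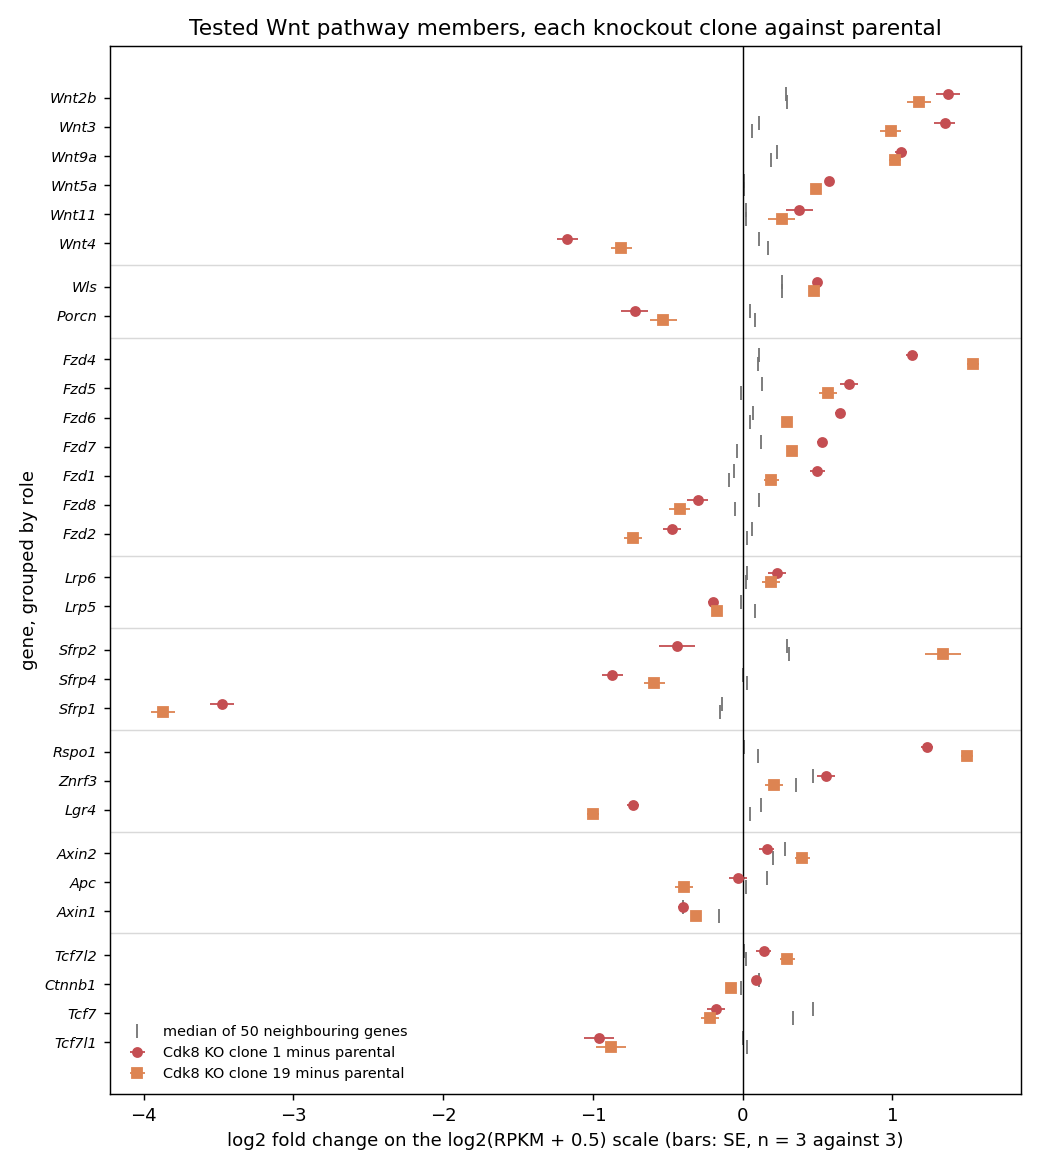
Log2 fold change on the log2(RPKM + 0.5) scale of the 30 tested Wnt pathway genes in clone 1 (circles) and clone 19 (squares) against parental cells, grouped by role, with SE bars (n = 3 against 3) and grey ticks at the median change of the 50 neighbouring tested genes. Sfrp1 lies farthest to the left at -3.48 and -3.87, Rspo1 and Fzd4 lie above 1 in both clones, and the Axin1 change in clone 1 lies on its tick.

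Among the 19 Wnt ligands, 6 were tested, and in each clone 5 rose and Wnt4 fell. Wnt9a, a ligand of the beta-catenin branch, measured 10.4, 11.1 and 10.5 RPKM across clone 1 and 10.9, 9.8 and 10.5 RPKM across clone 19, against 4.77, 4.93 and 4.92 RPKM in parental cells. Every clone library lay well above every parental one. The log2 fold change was 1.06 ± 0.04 in clone 1 (SE, n = 3 against 3, adjusted p = 4.2e-09, limma) and 1.02 ± 0.04 in clone 19 (adjusted p = 6.3e-09, limma). Wnt4, a ligand best known from kidney and gonad development, went the other way, at 2.31, 2.78 and 2.28 RPKM across clone 1 and 3.43, 3.21 and 3.18 RPKM across clone 19, against 6.51, 6.04 and 5.85 RPKM in parental cells. The 3 lines did not overlap, with clone 1 lowest. Its log2 fold change was -1.17 ± 0.07 in clone 1 (adjusted p = 6.7e-08, limma) and -0.81 ± 0.07 in clone 19 (adjusted p = 1.5e-06, limma). In parental cells Wnt4 was thus above Wnt9a per length of gene, and in every clone library Wnt9a was above Wnt4.

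Wnt2b and Wnt3, both ligands of the beta-catenin branch, were low in parental cells. Wnt3, which Paneth cells make in the mouse small intestine, measured 1.35, 1.41 and 1.41 RPKM across clone 1 and 1.01, 0.904 and 0.996 RPKM across clone 19, against 0.254, 0.273 and 0.194 RPKM in parental cells. The lines did not overlap, with clone 1 highest. By the estimated depths these levels stood for 98, 143 and 138 reads in clone 1 and 92, 94 and 77 reads in clone 19, against 35, 24 and 20 reads in parental cells. Mean Wnt3 was 578% of the parental mean in clone 1 and 403% in clone 19. The pseudocount shrinks such a change to a log2 fold change of 1.35 ± 0.07 in clone 1, a description given the filter, and 0.99 ± 0.07 in clone 19 (adjusted p = 4.9e-07, limma), and a pseudocount of 0.1 gave 2.14 and 1.66. Wnt2b measured 1.72, 2.01 and 1.7 RPKM across clone 1 and 1.46, 1.56 and 1.56 RPKM across clone 19, against 0.348, 0.376 and 0.457 RPKM in parental cells. All clone libraries were above all parental ones. Its log2 fold change was 1.37 ± 0.08 in clone 1 (adjusted p = 4.6e-08, limma) and 1.18 ± 0.08 in clone 19 (adjusted p = 1.7e-07, limma). With the median change of the 50 neighbouring tested genes subtracted, these were 1.08 and 0.88, and those neighbours were themselves higher by 0.29 and 0.30.

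Wnt5a, a ligand of the branches that do not use beta-catenin, was the most abundant ligand in every library. It rose to 23.6, 22.5 and 22.4 RPKM across clone 1 and 20.9, 21.3 and 22.2 RPKM across clone 19, against 15.4, 15.4 and 14.6 RPKM in parental cells, with no overlap between clones and parental cells (log2 change of 0.58 and 0.49, adjusted p = 5.5e-08 and 2.3e-07, limma). Wnt11, also known mainly from the branches without beta-catenin, changed less. It was at 2.72, 2.62 and 2.13 RPKM across clone 1 and 2.19, 2.17 and 2.41 RPKM across clone 19, against 2.08, 1.69 and 1.65 RPKM in parental cells, so the lowest clone libraries stood close to parental replicate 1 (0.38 and 0.26, adjusted p = 0.0038 and 0.027, limma). The Wnt11 call in clone 19 ended without clone 19 replicate 3 (adjusted p = 0.09, limma), without parental replicate 2 (0.086) or replicate 3 (0.097), and with no filter (0.064).

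The summed level of the 19 Wnt genes was 42.0 to 43.6 RPKM in clone 1 and 41.2 to 42.9 RPKM in clone 19, against 29.1 to 30.8 RPKM in parental cells. The share of Wnt5a in that sum was 51.7 to 54.2% in clone 1, 49.4 to 51.9% in clone 19 and 49.9 to 50.6% in parental cells, so it stayed the main ligand by level. Wnt9a made up 24.0 to 25.5% in clone 1 and 23.8 to 25.9% in clone 19, against 15.5 to 16.9% in parental cells. Wnt4 made up 5.3 to 6.38% in clone 1 and 7.43 to 8.12% in clone 19, against 19.9 to 21.1% in parental cells.

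**Figure D2:**
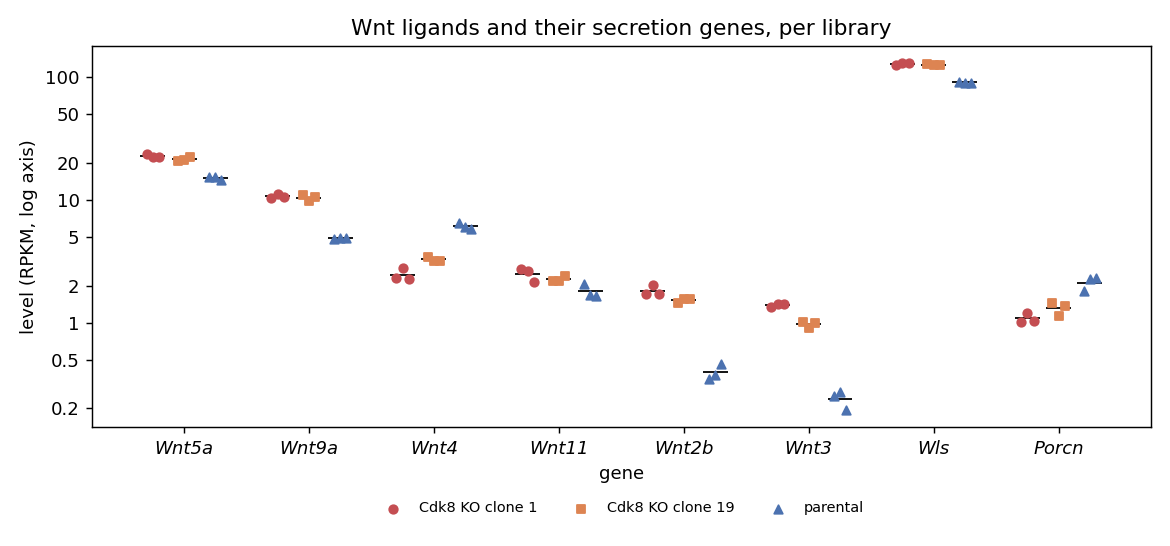
Level in RPKM (log axis) of the 6 tested Wnt ligands and the secretion genes Wls and Porcn in each library of clone 1 (circles), clone 19 (squares) and parental cells (triangles), with bars at the group means. Wnt2b and Wnt3 lie near or above 1 RPKM in the clones and below 0.5 RPKM in parental cells, while Wnt4 and Porcn are lower in the clones.

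The genes that prepare Wnt proteins for release moved in opposite directions. Wls carries Wnt proteins to the cell surface and was among the most abundant members, at 127, 130 and 130 RPKM across clone 1 and 128, 125 and 126 RPKM across clone 19, against 91.7, 89.8 and 90.6 RPKM in parental cells. It rose without overlap (log2 change of 0.50 and 0.48, adjusted p = 1.5e-09 and 2.6e-09, limma), but its neighbours rose by 0.26 in each clone, and with them subtracted the change was 0.24 and 0.22. Porcn, the enzyme that attaches the fatty acid to Wnt proteins, fell to 1.02, 1.19 and 1.04 RPKM across clone 1 and 1.44, 1.14 and 1.36 RPKM across clone 19, against 1.81, 2.26 and 2.3 RPKM in parental cells (-0.72 and -0.53, adjusted p = 3.8e-05 and 4.3e-04, limma). No clone library reached the parental range.

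Of the 10 Frizzled receptors, 7 were tested. Fzd1, Fzd4, Fzd5, Fzd6 and Fzd7 rose in each clone, and Fzd2 and Fzd8 fell. Fzd4, which also serves as the receptor for norrin in retinal vessels, changed most. It stood at 10.1, 9.55 and 9.89 RPKM across clone 1 and 13.5, 13.1 and 13.2 RPKM across clone 19, against 4.37, 3.98 and 4.36 RPKM in parental cells. The lines did not overlap, and clone 19 was highest. The log2 fold change of Fzd4 was 1.13 ± 0.04 in clone 1 (adjusted p = 1.5e-09, limma) and 1.54 ± 0.04 in clone 19 (adjusted p = 1.8e-10, limma).

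The other 6 tested Frizzled receptors moved by less than 2-fold. Fzd6 averaged 25.7 ± 0.288 RPKM in clone 1 (SD, n = 3), spanned 19.2 to 20.5 RPKM in clone 19 and averaged 16.1 ± 0.236 RPKM in parental cells (log2 change of 0.65 and 0.30, adjusted p = 9.1e-09 and 5.4e-06, limma). Fzd7, a receptor also active in mouse intestinal stem cells, averaged 25.3 ± 1.23 RPKM in clone 1 and 21.9 ± 0.445 RPKM in clone 19, against 17.3 ± 0.1 RPKM in parental cells (0.53 and 0.33, adjusted p = 1.2e-07 and 6.5e-06, limma). Fzd6 and Fzd7 were the most abundant Frizzled genes in every group. Fzd5 averaged 2.95 ± 0.0879 RPKM in clone 1 and 2.65 ± 0.0596 RPKM in clone 19, against 1.62 ± 0.134 RPKM in parental cells (0.71 and 0.57, adjusted p = 1.1e-06 and 7.2e-06, limma). Fzd1 averaged 5.98 ± 0.333 RPKM in clone 1 and 4.71 ± 0.215 RPKM in clone 19, against 4.07 ± 0.203 RPKM in parental cells (0.50 and 0.19, adjusted p = 8.7e-06 and 0.01, limma). Fzd2 averaged 10.3 ± 0.689 RPKM in clone 1 and 8.52 ± 0.595 RPKM in clone 19, against 14.4 ± 0.566 RPKM in parental cells (-0.47 and -0.73, adjusted p = 2.1e-05 and 6.7e-07, limma). Fzd8 averaged 1.46 ± 0.0798 RPKM in clone 1 and 1.31 ± 0.111 RPKM in clone 19, against 1.92 ± 0.159 RPKM in parental cells (-0.30 and -0.42, adjusted p = 0.0034 and 4.2e-04, limma).

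**Figure D3:**
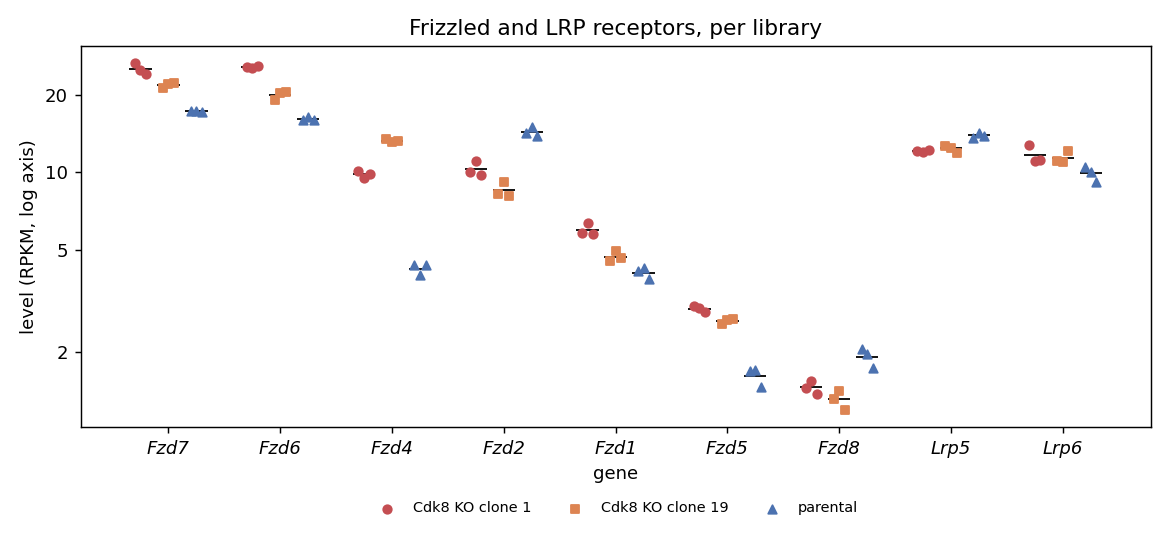
Level in RPKM (log axis) of the 7 tested Frizzled receptors and of Lrp5 and Lrp6 in each library of clone 1 (circles), clone 19 (squares) and parental cells (triangles), with bars at the group means. Fzd4 is below Fzd2 in parental cells and above it in clone 19, and Lrp5 and Lrp6 differ little between the lines.

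The shares of Fzd4 and Fzd2 in the family moved in opposite directions. Fzd4 held 11.5 to 12.2% of the summed Frizzled level in clone 1 and 17.6 to 18.8% in clone 19, against 6.44 to 7.37% in parental cells. Fzd2 held 12 to 13.3% in clone 1 and 11 to 12.3% in clone 19, against 23.5 to 24.4% in parental cells. Fzd4 was thus above Fzd2 in clone 19, while in clone 1 their shares overlapped. The sum over the 10 genes was 81.1 to 84.0 RPKM in clone 1 and 71.5 to 74.8 RPKM in clone 19, against 59.2 to 61.7 RPKM in parental cells. The co-receptors moved little. Lrp5 averaged 12.1 ± 0.119 RPKM in clone 1 and 12.4 ± 0.404 RPKM in clone 19, against 14 ± 0.375 RPKM in parental cells (-0.20 and -0.17, adjusted p = 2.7e-04 and 9.5e-04, limma). Lrp6 averaged 11.7 ± 0.957 RPKM in clone 1 and 11.4 ± 0.593 RPKM in clone 19, against 9.91 ± 0.639 RPKM in parental cells (0.23 and 0.19, adjusted p = 0.0065 and 0.018, limma). The Lrp6 call in clone 19 ended without clone 19 replicate 3 (adjusted p = 0.071, limma) or parental replicate 3 (0.075).

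The secreted antagonists lost most of their summed level. Their 11 genes summed to 3.14 to 3.82 RPKM in clone 1 and 5.11 to 5.94 RPKM in clone 19, against 24.1 to 24.9 RPKM in parental cells. Sfrp1, a secreted protein that binds Wnt ligands with a domain like that of the Frizzled receptors, made up 82.8 to 83.9% of the parental sum. It measured 1.62, 1.16 and 1.37 RPKM across clone 1 and 0.927, 0.987 and 0.876 RPKM across clone 19, against 20.6, 20.6 and 20.2 RPKM in parental cells. Every clone library was far below every parental one, at a mean of 6.77% of the parental level in clone 1 and 4.54% in clone 19. The estimated reads behind these levels were 165, 166 and 188 in clone 1 and 119, 144 and 95 in clone 19, against 3979, 2543 and 2925 in parental cells. Its log2 fold change was -3.48 ± 0.08 in clone 1 (adjusted p = 4.9e-11, limma) and -3.87 ± 0.08 in clone 19 (adjusted p = 2.9e-11, limma).

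Sfrp2, a close relative of Sfrp1, went opposite ways in the clones. It measured 0.323, 0.413 and 0.35 RPKM across clone 1 and 2.71, 2.11 and 2.58 RPKM across clone 19, against 0.656, 0.885 and 0.499 RPKM in parental cells. Clone 1 lay below and clone 19 above the parental libraries, without overlap. The levels rest on few reads, an estimated 15, 27 and 22 in clone 1 and 159, 141 and 128 in clone 19, against 58, 50 and 33 in parental cells. The log2 fold change was -0.44 ± 0.12 in clone 1 (adjusted p = 0.007, limma) and 1.34 ± 0.12 in clone 19. Because Sfrp2 passed the filter through the clone 19 libraries alone, the clone 19 value is a description. In clone 1 the call ended with quantile normalization (-0.15, adjusted p = 0.344, limma), and the value was -0.73 with a pseudocount of 0.1 and -0.75 with neighbouring genes subtracted. Sfrp4, another relative, fell to 1.56, 1.34 and 1.63 RPKM across clone 1 and 2.09, 1.74 and 2.04 RPKM across clone 19, against 3.16, 3.2 and 3.18 RPKM in parental cells (-0.87 and -0.59, adjusted p = 1.2e-06 and 3.5e-05, limma). In the remaining antagonist RNA of clone 1, Sfrp4 held 41.0 to 45.0% of the sum and Sfrp1 still 37.0 to 42.5%. In clone 19, Sfrp2 held 41.3 to 45.6% and Sfrp4 34.0 to 35.2%.

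**Figure D4:**
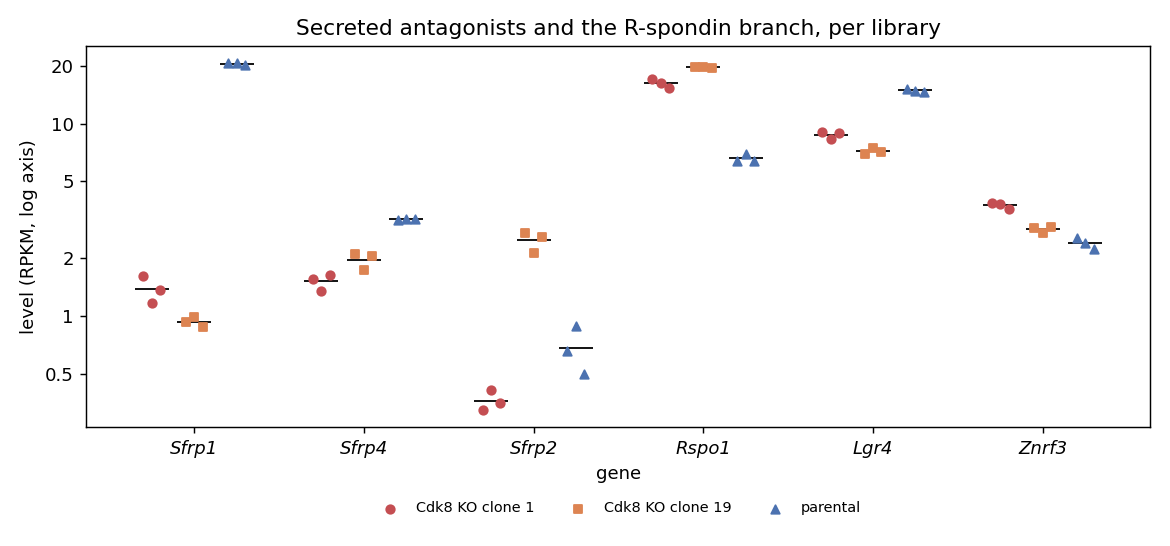
Level in RPKM (log axis) of the tested secreted antagonists and of the R-spondin branch in each library of clone 1 (circles), clone 19 (squares) and parental cells (triangles), with bars at the group means. Sfrp1 separates both clones from parental cells most widely, Sfrp2 is high in clone 19 alone, and Rspo1 and Lgr4 move in opposite directions.

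In the R-spondin branch, the ligand rose and its receptor fell. Rspo1, an R-spondin that strengthens Wnt signals, measured 17.0, 16.3 and 15.3 RPKM across clone 1 and 19.7, 19.6 and 19.4 RPKM across clone 19, against 6.42, 6.95 and 6.4 RPKM in parental cells. The lines did not overlap, and clone 19 was highest. The means were 246% and 297% of the parental mean, with log2 fold changes of 1.23 ± 0.04 in clone 1 (adjusted p = 9.9e-10, limma) and 1.5 ± 0.04 in clone 19 (adjusted p = 2.6e-10, limma). Lgr4, a receptor for R-spondins, measured 9.06, 8.34 and 8.89 RPKM across clone 1 and 6.91, 7.48 and 7.11 RPKM across clone 19, against 15.2, 14.8 and 14.6 RPKM in parental cells. All clone libraries were below all parental ones, at 59.0% of the parental mean in clone 1 and 48.2% in clone 19. Its log2 fold change was -0.73 ± 0.04 in clone 1 (adjusted p = 4.2e-08, limma) and -1.0 ± 0.04 in clone 19 (adjusted p = 4.0e-09, limma).

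Znrf3, a ligase that removes Frizzled receptors from the surface and is held off by R-spondins, averaged 3.75 ± 0.118 RPKM in clone 1 and 2.83 ± 0.104 RPKM in clone 19, against 2.38 ± 0.158 RPKM in parental cells (0.56 and 0.21, adjusted p = 4.5e-06 and 0.0066, limma). Its neighbouring genes rose as well, by 0.47 and 0.36. With them subtracted the clone 1 call ended (0.09, adjusted p = 0.18, limma) and in clone 19 the direction turned (-0.15, adjusted p = 0.045, limma). The intestinal stem cell receptor Lgr5 stayed at or below 0.0135 RPKM in every library.

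**Figure D5:**
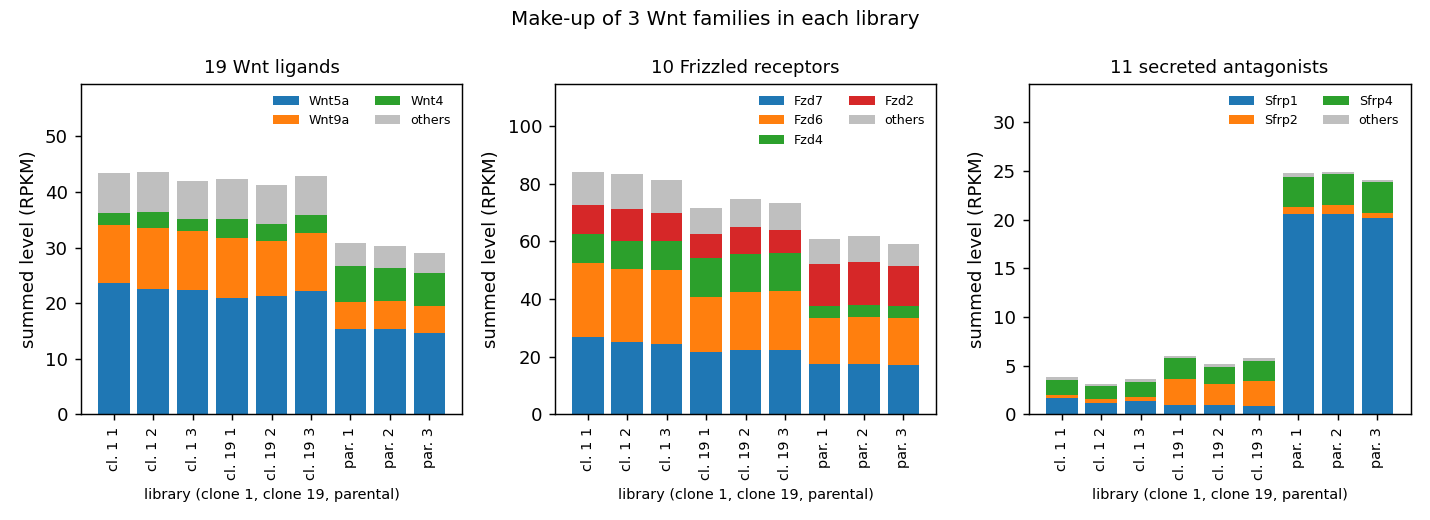
Summed level in RPKM of the 19 Wnt ligands, 10 Frizzled receptors and 11 secreted antagonists in each library, ordered clone 1, clone 19 and parental, with the main genes stacked by colour and the others in grey. The antagonist bars of the clones are short against parental bars that are mostly Sfrp1, and in the Frizzled panel the Fzd4 segment is tallest in clone 19 and the Fzd2 segment in parental cells.

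Rspo1, Fzd4 and Wnt2b are 3 of the members that rose at least 2-fold in both clones on the log2(RPKM + 0.5) scale, 1 from each of the R-spondin branch, the receptors and the ligands. The 250 bases before their annotated gene starts are printed here to show what kind of promoter they have. The sequences are RefSeq's for GRCm38.p6, a later build than the one the submitters name, on the strand of the gene, with each CG dinucleotide in capitals. Rspo1 is at chr4:124986180-124986429 on the plus strand, Fzd4 at chr7:89404116-89404365 on the plus strand and Wnt2b at chr3:104961710-104961959 on the minus strand.
Rspo1: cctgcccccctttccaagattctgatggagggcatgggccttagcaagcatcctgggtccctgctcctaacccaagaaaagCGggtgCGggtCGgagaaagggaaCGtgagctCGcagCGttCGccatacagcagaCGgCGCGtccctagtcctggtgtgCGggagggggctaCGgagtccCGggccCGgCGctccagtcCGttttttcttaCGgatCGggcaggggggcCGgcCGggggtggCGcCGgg
Fzd4: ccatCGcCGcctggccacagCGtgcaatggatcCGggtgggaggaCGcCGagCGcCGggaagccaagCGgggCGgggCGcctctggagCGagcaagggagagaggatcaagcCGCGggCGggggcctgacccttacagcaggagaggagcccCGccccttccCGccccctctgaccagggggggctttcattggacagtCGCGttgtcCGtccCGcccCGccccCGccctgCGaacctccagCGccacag
Wnt2b: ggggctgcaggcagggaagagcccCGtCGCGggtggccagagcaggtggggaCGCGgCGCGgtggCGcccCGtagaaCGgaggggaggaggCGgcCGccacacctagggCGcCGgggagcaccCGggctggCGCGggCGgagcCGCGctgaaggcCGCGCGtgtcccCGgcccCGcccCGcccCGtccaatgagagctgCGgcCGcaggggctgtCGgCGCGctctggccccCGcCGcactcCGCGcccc
They hold 22, 25 and 36 CG dinucleotides, where the median over the 51 promoters found for 41 of the 63 genes was 17 and over all 32851 promoters 6. The TCF/LEF motif CTTTGAT, searched on both strands, is in none of the 3. It is in 2 of the 51 member promoters (3.92%), those of Wnt11 and Wnt5b, against 3.21% of all promoters. A match of letters is a description and not a binding site.

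No tested intracellular member changed by 2-fold on the log2(RPKM + 0.5) scale. Axin2, a feedback inhibitor that is itself a widely used target gene of the pathway, averaged 3.68 ± 0.209 RPKM in clone 1 and 4.42 ± 0.125 RPKM in clone 19, against 3.23 ± 0.037 RPKM in parental cells (0.16 and 0.40, adjusted p = 0.011 and 2.8e-05, limma). Its neighbours rose by 0.28 and 0.20, and with them subtracted the change was -0.11 in clone 1 (adjusted p = 0.081, limma) and 0.20 in clone 19 (adjusted p = 0.0061, limma). Axin1, the scaffold of the destruction complex, averaged 24.5 ± 0.799 RPKM in clone 1 and 26.2 ± 0.229 RPKM in clone 19, against 32.5 ± 0.258 RPKM in parental cells (-0.40 and -0.31, adjusted p = 1.5e-07 and 1.5e-06, limma). The neighbours of Axin1 fell by as much in clone 1, and with them subtracted no call was left there (-0.00, adjusted p = 0.908, limma) while -0.14 remained in clone 19 (adjusted p = 0.0037, limma). Apc, the other scaffold, was the 1 tested member that did not pass in clone 1, at 7.33 ± 0.646 RPKM in clone 1 and 5.57 ± 0.19 RPKM in clone 19, against 7.46 ± 0.118 RPKM in parental cells. Its log2 fold change was -0.03 in clone 1 (adjusted p = 0.67, limma) and -0.39 in clone 19 (adjusted p = 8.6e-05, limma), and with neighbouring genes subtracted it passed in clone 1 too (-0.19, adjusted p = 0.0089, limma).

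Ctnnb1, which encodes beta-catenin, was the most abundant member and differed little, at 191 ± 2.79 RPKM in clone 1 and 171 ± 3.53 RPKM in clone 19, against 180 ± 1.06 RPKM in parental cells. The log2 fold change was 0.09 in clone 1 (adjusted p = 0.0019, limma) and -0.08 in clone 19 (adjusted p = 0.0042, limma). The clone 1 call ended with quantile normalization (0.01, adjusted p = 0.611, limma) and turned to -0.03 with neighbouring genes subtracted (adjusted p = 0.275, limma). Tcf7l1, a TCF that mostly represses, came nearest, at 45.3% and 48.3% of its parental mean. It fell to 1.77 ± 0.289 RPKM in clone 1 and 1.89 ± 0.133 RPKM in clone 19, against 3.92 ± 0.411 RPKM in parental cells (-0.96 and -0.88, adjusted p = 5.8e-06 and 1.3e-05, limma). Tcf7l2, the main TCF of intestinal epithelium, averaged 4.77 ± 0.236 RPKM in clone 1 and 5.41 ± 0.27 RPKM in clone 19, against 4.3 ± 0.103 RPKM in parental cells (0.14 and 0.30, adjusted p = 0.032 and 3.0e-04, limma). The clone 1 call of Tcf7l2 ended with any 1 of 4 libraries left out, at adjusted p of 0.058 without clone 1 replicate 1, 0.115 without clone 1 replicate 2, 0.082 without parental replicate 2 and 0.083 without parental replicate 3 (limma). It also ended with no filter (0.054), median-ratio scaling (0.071) or neighbouring genes subtracted (0.07). Tcf7, known from T cells, averaged 4.07 ± 0.233 RPKM in clone 1 and 3.95 ± 0.315 RPKM in clone 19, against 4.66 ± 0.111 RPKM in parental cells (-0.18 and -0.22, adjusted p = 0.022 and 0.0076, limma). That change was -0.65 and -0.56 with neighbouring genes subtracted, and the clone 1 call ended without clone 1 replicate 3 (adjusted p = 0.089, limma), parental replicate 2 (0.06) or parental replicate 3 (0.061).

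Of the 33 members below the filter, 27 stayed at or below 0.3 RPKM in every library and 6 went above it in some library. Dkk1, an antagonist that binds the LRP co-receptors, was listed at 0 in all 9. With no filter on low values, 34 of 62 members were called in clone 1 and 36 of 62 in clone 19. At that setting 10226 and 9659 of all 21679 genes were called, so a call there is common. Lef1, the TCF/LEF factor often raised by Wnt signals, measured 0.157, 0.0871 and 0.258 RPKM across clone 1 and 0.54, 0.487 and 0.541 RPKM across clone 19, against 0.138, 0.158 and 0.0983 RPKM in parental cells. Only the clone 19 libraries stood apart, at an estimated 39, 40 and 33 reads, where clone 1 had 9, 7 and 20 and parental cells 15, 11 and 8. With no filter on low values the log2 fold change of Lef1 was 0.07 in clone 1 (adjusted p = 0.544, limma) and 0.70 in clone 19 (adjusted p = 1.6e-04, limma). Frzb, a secreted antagonist of the Sfrp family, had an estimated 0, 0 and 2 reads in clone 1 and 1, 0 and 2 in clone 19, against 21, 10 and 12 in parental cells, and was called lower in both clones with no filter (-0.33 and -0.31, adjusted p = 4.8e-05 and 7.5e-05, limma). Dkk3, a secreted member of the Dickkopf family, had 19, 23 and 20 reads in clone 1 and 15, 20 and 10 in clone 19, against 6, 3 and 1 in parental cells (0.44 and 0.30, adjusted p = 3.7e-05 and 4.4e-04, limma). Lgr6 had 1, 1 and 5 reads in clone 1 and 3, 2 and 2 in clone 19, against 12, 14 and 6 in parental cells (-0.17 in each, adjusted p = 0.023 and 0.026, limma).

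Further low members passed in a single clone with no filter on low values, where 10226 and 9659 of 21679 genes passed in clone 1 and clone 19. Fzd3, a receptor of planar polarity, measured 0.743, 0.654 and 0.701 RPKM across clone 1 and 0.339, 0.451 and 0.345 RPKM across clone 19, against 0.334, 0.317 and 0.313 RPKM in parental cells, and with no filter passed in clone 1 (0.55, adjusted p = 6.8e-05, limma) and not in clone 19 (0.10, adjusted p = 0.252, limma). Rspo3, the R-spondin of intestinal stroma in mice, measured 0.826, 0.728 and 0.729 RPKM across clone 1 and 0.441, 0.525 and 0.37 RPKM across clone 19, against 0.943, 0.827 and 0.921 RPKM in parental cells. It passed in clone 19 with no filter (-0.57, adjusted p = 2.4e-04, limma) and not in clone 1 (-0.15, adjusted p = 0.145, limma). Wnt10a passed in clone 19 only at this setting (0.41, adjusted p = 0.015, limma), against 0.08 in clone 1 (adjusted p = 0.625, limma). Wnt10b, which lies next to Wnt1 on chromosome 15, was lower in clone 1 (-0.34, adjusted p = 0.0066, limma) and not called in clone 19 (0.11, adjusted p = 0.299, limma). Fzd9 ranged from 0.301 to 0.798 RPKM over all libraries. Rnf43, the partner ligase of Znrf3, averaged 0.138 RPKM in clone 1 and 0.115 RPKM in clone 19, against 0.06 RPKM in parental cells. With no filter it passed in clone 1 (0.19, adjusted p = 0.021, limma) and not in clone 19 (0.13, adjusted p = 0.091, limma). Wnt5b passed in clone 19 (0.25, adjusted p = 0.023, limma) and not in clone 1 (0.04, adjusted p = 0.703, limma). The feedback inhibitors Nkd1 and Notum stayed at or below 0.0806 RPKM and 0.101 RPKM in every library.

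Set directly against each other, clone 19 and clone 1 differed in 18 of the 30 tested members, 8 higher and 10 lower in clone 19, where 43.0% of all tested genes passed (18.5% higher and 24.5% lower). The median absolute difference of the members was 0.20, against 0.10 over all tested genes. Sfrp2 was the 1 tested member that differed at least 2-fold, at 2.71, 2.11 and 2.58 RPKM across clone 19 against 0.323, 0.413 and 0.35 RPKM across clone 1 (log2 difference 1.78 ± 0.12, a description, since it passed the filter through clone 19 alone), where 0.461% of all tested genes differed that much. Fzd4 was higher in clone 19 (0.41, adjusted p = 3.3e-05, limma), as were Wnt4 (0.36, adjusted p = 0.0022, limma), Sfrp4 (0.29, adjusted p = 0.01, limma), Rspo1 (0.27, adjusted p = 6.5e-04, limma) and Axin2 (0.24, adjusted p = 0.0033, limma). Lower in clone 19 were Sfrp1 (-0.39, adjusted p = 0.0024, limma), Apc (-0.36, adjusted p = 5.0e-04, limma), Fzd6 (-0.35, adjusted p = 1.2e-05, limma) and Znrf3 (-0.35, adjusted p = 6.4e-04, limma). Wnt3 was lower too (-0.36, a description, since it needed its 3 clone 1 libraries to pass the filter). With neighbouring genes subtracted the difference was 0.18 for Rspo1 and -0.22 for Apc, both still called. The ligands Wnt5a, Wnt9a, Wnt11 and Wnt2b were not called different between the clones, although Wnt2b passed with no mean-variance trend (-0.19, adjusted p = 0.037, limma) and Wnt5a without clone 19 replicate 3 (-0.11, adjusted p = 0.037, limma). Among the low members, with no filter, clone 19 minus clone 1 was 0.62 for Lef1 (adjusted p = 0.0011, limma), -0.45 for Fzd3 (adjusted p = 9.5e-04, limma), -0.42 for Rspo3 (adjusted p = 0.004, limma), 0.33 for Wnt10a (adjusted p = 0.063, limma) and 0.45 for Wnt10b (adjusted p = 0.0037, limma). For Wnt7b it was 0.25 (adjusted p = 0.035, limma). At this setting 5303 of 21679 genes were called between the clones.

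Neighbouring members lay together on several chromosomes. Wnt9a has Wnt3a, and Wnt3 has Wnt9b, as the next coding gene on chromosome 11, Wnt6 and Wnt10a are neighbours on chromosome 1, and Wnt10b and Wnt1 on chromosome 15. Wnt9a and Wnt3 were tested and rose, while Wnt3a and Wnt9b were among the genes at or below 0.3 RPKM. Chromosome 11 holds 10 of the 63 genes, and its 996 tested genes had a median log2 fold change of 0.15 in clone 1 and 0.12 in clone 19. The tested genes of chromosome 3, where Wnt2b, Wls and Sfrp2 lie, had medians of 0.28 and 0.30, and those of chromosome 17, where Axin1 lies, -0.26 and -0.11. A shift common to neighbouring genes and a change of the member itself cannot be told apart from these values, so members whose change nears that of their neighbours are given with both.

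Of 99 further genes of the pathway in 4 lists, 67 were tested, and 54 of these passed in clone 1 (29 higher and 25 lower, 80.6%) and 49 in clone 19 (25 higher and 24 lower, 73.1%), where 72.4% and 69.0% of all tested genes passed. Their median log2 fold changes were 0.04 and 0.02, against 0.03 and 0.02 over all tested genes. The split between higher and lower depended on the setting. With neighbouring genes subtracted 21 were higher and 28 lower in each clone, and with no filter 28 were higher and 36 lower in clone 1 and 25 and 37 in clone 19. Apc2, Ccn5, Prickle3, Ror2 and Sox9 passed the filter only with the libraries of the line where they were highest, clone 1 for Prickle3 and parental cells for the other 4, so their values are descriptions with no test. They are included in the totals of their lists but lend those totals no support. Of 26 tested Dishevelled proteins, kinases and adaptors, 12 were higher and 5 lower in clone 1, and 10 and 4 in clone 19. These are 65.4% and 53.8% of the list, below the shares over all tested genes. Amer1, which recruits Axin to the membrane, averaged 14.3 ± 0.435 RPKM in clone 1 and 14.4 ± 0.0814 RPKM in clone 19, against 9.42 ± 0.312 RPKM in parental cells (0.58 and 0.59, adjusted p = 6.1e-08 and 5.6e-08, limma). Csnk1g2, a casein kinase that phosphorylates the LRP6 tail, averaged 24.2 ± 0.786 RPKM in clone 1 and 28.7 ± 0.431 RPKM in clone 19, against 41.8 ± 1.72 RPKM in parental cells (-0.77 and -0.53, or -0.40 and -0.21 with neighbouring genes subtracted). Apc2, a relative of Apc, had log2 fold changes of -0.63 and -0.56, or -0.26 and -0.23 with neighbouring genes subtracted.

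Of 13 tested receptors of the branches without beta-catenin and planar polarity genes, 6 were higher and 4 lower in clone 1, and 8 and 3 in clone 19. These are 76.9% and 84.6% of the list, against 72.4% and 69.0% of all tested genes. Ror2, a receptor for Wnt5a, measured 0.228, 0.27 and 0.232 RPKM across clone 1 and 0.137, 0.234 and 0.193 RPKM across clone 19, against 3.55, 3.5 and 3.44 RPKM in parental cells. Its log2 fold change was -2.43 ± 0.08 in clone 1 and -2.54 ± 0.08 in clone 19, and no clone library came near the parental ones. The planar polarity genes Prickle1 (1.18 and 1.04) and Celsr1 (0.91 and 1.13) rose in both clones. Of 10 tested extracellular and membrane modulators, 4 were higher and 6 lower in clone 1, and 1 and 5 in clone 19 (0 and 4 did not pass). The called share of this list was 100% in clone 1 and 60.0% in clone 19, where that of all tested genes was 72.4% and 69.0%. Igfbp4, a secreted protein that can bind Frizzled and LRP6, rose (1.12 and 1.25), while Adgra2, a co-activator of Wnt7 signals in brain vessels of mice, fell to 5.53 ± 0.0469 RPKM in clone 1 and 5.51 ± 0.0112 RPKM in clone 19, against 14.8 ± 0.414 RPKM in parental cells (-1.35 in each, adjusted p = 1.2e-10 in each, limma). Gpc4, a heparan sulfate proteoglycan of the cell surface, fell too (-1.0 and -1.41).

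Genes known as transcriptional targets of the pathway went both ways. Of 18 tested, 7 were higher and 10 lower in clone 1, and 6 and 12 in clone 19, where 39.8% and 36.7% of all tested genes were higher and 32.6% and 32.3% lower. Their medians were -0.41 and -0.26, against 0.03 and 0.02 over all tested genes. Ccn5 and Sox9 are among those counted lower and enter the medians. Both passed the filter through the parental libraries alone and so had to be lower. They lend these counts and medians no support, and the medians without them were not computed. Fgf18, a growth factor, rose to 43.7 ± 1.42 RPKM in clone 1 and 43.3 ± 1.48 RPKM in clone 19, against 13.6 ± 0.482 RPKM in parental cells (1.65 and 1.64, adjusted p = 3.7e-11 and 4.5e-11, limma). Sox9, a transcription factor of the crypt, averaged 0.0861 ± 0.0149 RPKM in clone 1 and 0.286 ± 0.0453 RPKM in clone 19, against 1.44 ± 0.0449 RPKM in parental cells (log2 fold changes -1.73 and -1.31). Ccn5, a matricellular protein, averaged 0.0433 ± 0.0165 RPKM in clone 1 and 0.0996 ± 0.0603 RPKM in clone 19, against 2.94 ± 0.142 RPKM in parental cells (-2.66 and -2.52).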

How the data were processed

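RNA of YAMC cells was sequenced in 9 libraries, 3 each of clone 1, clone 19 and the parental line, from total RNA taken with a column kit and made into libraries with a TruSeq kit, per the labels' protocols. The authors deposited RPKM values for 28059 Entrez gene IDs. The tools were GSNAP and DESeq and the build NCBIM37, per the submitters' processing notes. How genes were annotated and reads counted, and whether size factors entered the RPKM values, is not given in the sources used here. RPKM corrects for gene length and library reads, not for shifts in RNA composition. IDs were named through RefSeq (24998 of them), and 981 tested genes had no name.

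The software limma 3.58.1, run in R 4.3.3, fitted log2(RPKM + 0.5) with its variance trend allowed, in 1 model of 3 group means over the 12568 genes with at least 1 RPKM in at least 3 libraries. A gene was called at a Benjamini-Hochberg adjusted p under 0.05 within its contrast. Fold changes on this scale understate changes of low genes. No count test was run. Depth was estimated from the smallest steps between low values of 298 genes, with quartiles for parental replicate 1 of 43.3 and 44.2 megareads, and estimated reads are levels divided by the value of 1 read, and are estimates, not read totals. By rule, members changed at least 2-fold against parental cells in either clone are given with every library's value and other tested members at least with means, and of each further list up to 3 called genes with the largest mean change were named. The members and lists were chosen with earlier results of these data known. Alternatives were pseudocounts of 0.1 and 1, no filter, filtering at 3 RPKM, quantile normalization, median-ratio scaling, no trend, only the groups compared, a replicate block, subtraction of the median change of the 50 nearest tested genes in RefSeq order, and each library left out.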

Additional observations from a re-analysis of the deposited data

Results flagged for a closer look

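Differences between the clones under the same comparison with parental cells were found in 18 members and in 4 named genes of the further lists, by the limma contrast of clone 19 minus clone 1. All values are log2 differences. Higher in clone 19 were Sfrp2 at 1.78, Sox9 at 0.42, Fzd4 at 0.41, Wnt4 at 0.36, Sfrp4 at 0.29, Rspo1 at 0.27, Axin2 at 0.24, Csnk1g2 at 0.24, Celsr1 at 0.22, Tcf7l2 at 0.16 and Axin1 at 0.10. Lower in clone 19 were Gpc4 at -0.41, Sfrp1 at -0.39, Apc at -0.36, Wnt3 at -0.36, Znrf3 at -0.35, Fzd6 at -0.35, Fzd1 at -0.31, Lgr4 at -0.27, Fzd2 at -0.26, Fzd7 at -0.20 and Ctnnb1 at -0.16. With 43.0% of all tested genes called between the clones, a small difference is common. With neighbouring genes subtracted Axin1 turned to -0.14 and was called at an adjusted p of 0.011 by limma, and the calls of Tcf7l2, Fzd7 and Ctnnb1 ended. Sfrp2 passed the filter through clone 19 alone, Sox9 through parental cells alone, and Wnt3 needed its clone 1 libraries, so their values are descriptions. Each line is 1 clone, so these differences describe the 2 clones.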

How the results depend on the processing

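Counts of called members kept within 1.5 times under every alternative run, at 22 to 34 in clone 1, 23 to 36 in clone 19 and 15 to 23 between the clones. The number tested changed with the filter, from 30 members to 23 at 3 RPKM and 62 with no filter, so the called share was not stable. In clone 1 these settings called 22 of 23 and 34 of 62 members, where 7990 of 10655 and 10226 of 21679 of all genes were called. In clone 19 they called 23 of 23 and 36 of 62, where 7613 of 10655 and 9659 of 21679 were called. Leaving out a library gave 27 to 29, 28 to 30 and 17 to 19 members, 8556 to 9107, 8094 to 8781 and 4434 to 5207 of all tested genes, and 50 to 53, 47 to 51 and 31 to 38 genes of the further lists. Of 879 values under the other alternatives, 861 kept their call or lack of one, 11 lost their call, 3 gained one and 4 turned direction. A turn was counted only where the value was called before or after it. Uncalled values that changed sign count as kept, such as Fzd5 between the clones (-0.13, and 0.01 with neighbouring genes subtracted). With neighbouring genes subtracted the turned values were -0.03 for Ctnnb1 and -0.11 for Axin2 in clone 1, -0.15 for Znrf3 in clone 19 and -0.14 for Axin1 between the clones. Why these values turned was not tested. Of 810 values with a library left out, 793 kept their call or lack of one, 16 lost a call, 1 gained one and 0 turned by the same count. Between the clones, the calls of Fzd7 (-0.04, adjusted p = 0.492, limma), Ctnnb1 (-0.04, adjusted p = 0.123, limma) and Tcf7l2 (0.15, adjusted p = 0.074, limma) ended with neighbouring genes subtracted, and that of Tcf7l2 also ended without clone 1 replicates 1 or 3 or clone 19 replicates 1 or 2 (adjusted p = 0.051 to 0.087, limma).

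With the replicate number as a block, 29, 30 and 18 members were called, as without it. The labels do not say what a number stands for. The deviations of same-numbered libraries correlated at -0.0353 to 0.123 over 9 pairs, 1 of them over 0.1, and 3 of 9 libraries correlated best with their own number. Such correlations cannot show whether libraries with the same number share more than that number. Depth limits the 33 members below the filter, most of which rest on a few reads.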
